A study of Saccharomyces cerevisiae with 4 samples.

Results

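The 10 Hsp70 and Hsp110 chaperone genes of the budding yeast Saccharomyces cerevisiae were followed in strains that lack the bromodomain gene BDF1 and were kept in 0.6 mol/L NaCl for 45 min. They were taken by systematic name from 6388 gene probes on the array and are SSA1 (YAL005C), SSA2 (YLL024C), SSA3 (YBL075C), SSA4 (YER103W), SSB1 (YDL229W), SSB2 (YNL209W), SSC1 (YJR045C), SSE1 (YPL106C), SSE2 (YBR169C) and KAR2 (YJL034W). All 10 had a probe with 3 spots, and all 10 passed the filter on background in both comparisons. The reference strain BF2 is a bdf1 deletion with the plasmids pYX242 and pRS316. BF2B is deleted for both BDF1 and BDF2 and bears a construct labelled BDF2 L beside pYX242. BF2S has the same 2 deletions and BDF2 L, with a construct labelled SIR2 H. The labels leave L and H unexplained, and they name no culture, clone or untreated sample, so the response to salt itself was not measured. BF2B and BF2S were each hybridised with BF2 on 2 slides with the dyes exchanged. As each pair of slides held 1 RNA pair, it was counted as 1 replicate, and no test between strains was possible. Every SD below is that of 2 hybridisations, except where it is given for the spots of a slide.

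Hsp70 proteins bind exposed hydrophobic stretches of other proteins and release them in a cycle of ATP binding and hydrolysis. J-domain proteins start hydrolysis, and nucleotide exchange factors, among them the Hsp110 proteins, end the cycle. In yeast the Ssa proteins work in the cytosol and the Ssb proteins on nascent chains at the ribosome. Ssc1 drives import and folding in the mitochondrial matrix, and Kar2 (BiP) does so in the endoplasmic reticulum. SSA1 and SSA2 are expressed in growing cells, whereas SSA3, SSA4 and SSE2 are known as stress-inducible forms. Hsf1 and Msn2/Msn4 are the main transcription factors of the stress-inducible genes, and Hac1 is that of KAR2 under secretory stress.

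The slides of BF2B and of BF2S differed in the signal of their blank spots. Blank spots on the BF2B slides had median signals of 29.0 to 110.0 brightness units above local background, and all 10 genes lay above the 95th percentile of the blank spots in both strains. In the BF2S channel of the other slides, blank spots reached medians of 6049 and 5325 units, and all 10 genes lay below these medians there. BF2B is therefore described first and in full, and BF2S at the end. BDF2, the gene that differs between BF2B and BF2 by construction, was higher in BF2B at a log2 ratio of 1.61 ± 0.03. BDF1, deleted in all 3 strains, did not pass the background filter for BF2B or BF2 on those slides. On the BF2S slides BDF1 passed it, through the BF2S channel on slide 1 and through the BF2 channel on slide 2, at 1.64 ± 0.28. By the call rule given below, BDF1 was called higher there although it is deleted by label. Its BF2S signals of 1580 and 419.5 units lay below the blank medians of that channel. The value therefore cannot show whether BDF1 RNA was present, and that sample is called the sample labelled BF2S. SIR2 was also called higher on the BF2S slides, at 1.51 ± 0.18. Its BF2S signals of 1738 and 1320 units were also below the blank medians. BDF2 stood at 0.65 ± 0.61 on these slides and was not called.

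In BF2B the stress-inducible SSA3 was 4.06-fold lower than in BF2, and SSA1, SSA2, SSB1, SSB2, SSE1 and KAR2 had mean ratios within 1.11-fold of BF2. SSC1, SSA4 and SSE2 had intermediate values below BF2. The submitters' criterion was used for calls: a change past 2-fold on both dye-swapped slides with equal sign, here with 1 or both channels above background each time. By this rule 1 of the 10 genes was called lower, SSA3, and 0 were called higher. Over all 4660 genes above background, 1.61% were called lower and 1.37% higher. The median log2 ratio of the 10 genes was -0.13, and that of all genes was -0.01. A weaker rule, over 1.5-fold on both slides, called the same single gene, against 4.66% of all genes lower and 4.16% higher. Of the 10 genes, 6 lay below 0 on both slides, where 32.0% of all genes did, and 0 lay above 0 on both, where 31.6% did. These 6 were SSA1, SSA2, SSA3, SSA4, SSC1 and SSE2.

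**Figure D1:**
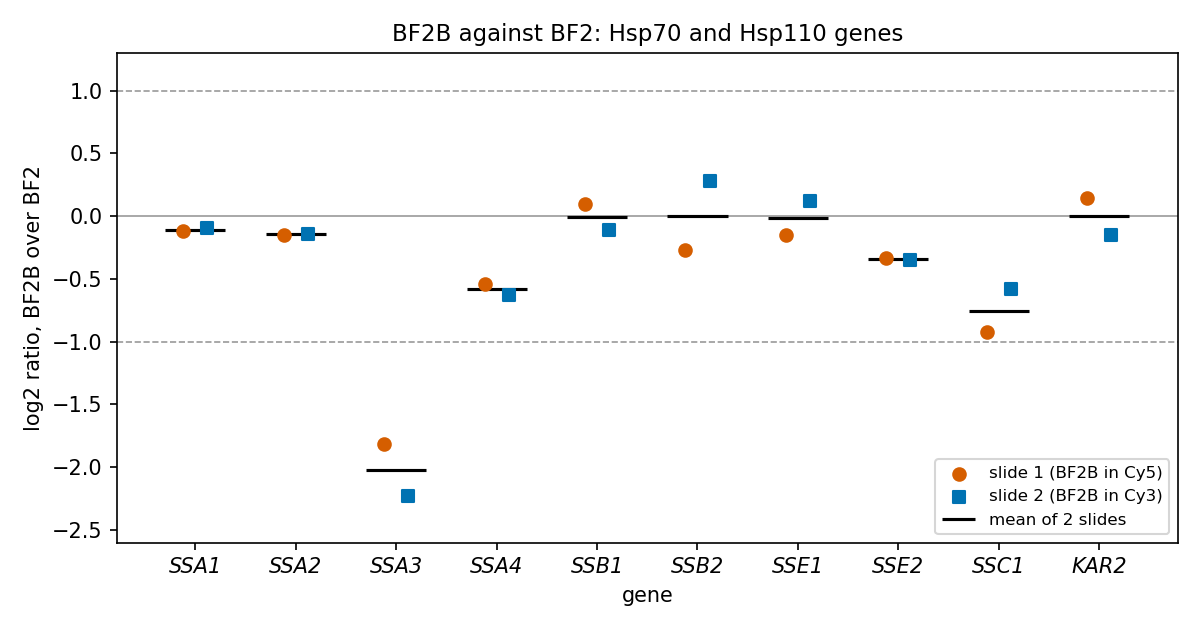
Log2 ratio of BF2B over BF2 (y axis) for each of the 10 genes (x axis) on slide 1 (circles) and slide 2 (squares), with the mean of the 2 slides as a bar and dashed lines at 2-fold. SSA3 lies below the lower line on both slides, at -1.82 and -2.23, and the other 9 genes lie between the lines.

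Among the cytosolic Ssa genes, SSA3 gave 3025 units in BF2B beside 10611 units in BF2 on slide 1. On slide 2 it gave 2708 units in BF2B beside 15933 units in BF2. Both BF2 signals were above both BF2B signals. The dye-corrected log2 ratio (loess, a correction that depends on brightness) was -1.82 on slide 1 and -2.23 on slide 2, with a mean of -2.02 ± 0.29, or 4.06-fold lower. The 3 spots of the probe differed little on either slide, with an SD of 0.03 and 0.08 on the log2 scale. Only 10 of the 4660 genes had a lower mean ratio. SSA3 was also the lowest of all genes on its chromosome, with 0 of 329 others below it.

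For SSA4, the other stress-inducible Ssa gene, BF2B gave 2239 and 2265 units and BF2 gave 3281 and 4133. The uncorrected signals of the strains did not overlap, but the distance was smaller than for SSA3. Such separation was also seen for SSA3, SSC1 and SSE2, and its share over all genes is not given. Its log2 ratio was -0.54 and -0.62, with a mean of -0.58 ± 0.06, and it was not called. In all, 316 genes had a lower ratio.

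The array also held 144 control spots named SSA4 on each slide, 3 in each of its 48 blocks, which are separate from the probe of YER103W. They gave a mean log2 ratio of -0.90 ± 0.18 over spots on slide 1 and -0.83 ± 0.17 on slide 2. Every one of these spots was below 0, from -1.46 to -0.54 on the first slide and from -1.18 to -0.45 on the second. Their median signals were 3513 and 4070 units in BF2B, with 6235 and 8985 in BF2. The control spots and the gene probe thus had the same direction, but the control spots lay lower. On slide 1, 0 of 144 control spots had a ratio above that of the gene probe, and on slide 2 it was 17 of 144. Other control spots did not share 1 value: those named ACT1, the actin gene, averaged -1.26 ± 0.07, RPL32 -0.17 ± 0.01 and UB14 0.11 ± 0.04 over the slides. In the block that holds the gene probe, the 3 control spots averaged -0.90 and -0.85 beside -0.54 and -0.62 for the probe. Which part of the gene either one covers was not analysed here.

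**Figure D2:**
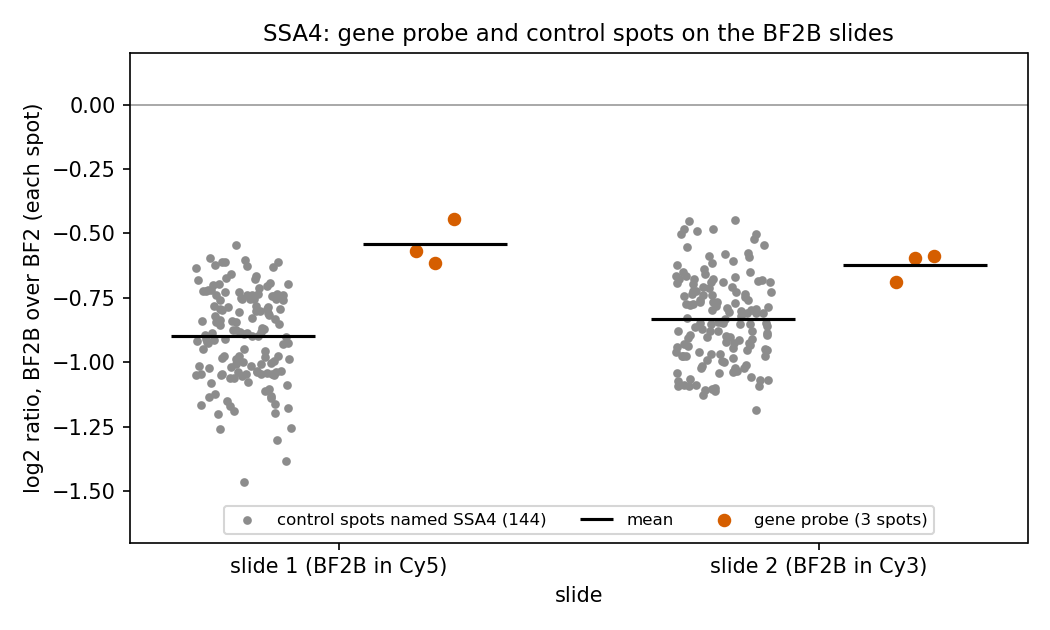
Log2 ratio of BF2B over BF2 (y axis) of each spot on the 2 BF2B slides (x axis), for the 144 control spots named SSA4 (grey) and the 3 spots of the SSA4 gene probe (orange), with bars at the means. All spots lie below 0, and the control spots average -0.90 and -0.83 beside -0.54 and -0.62 for the gene probe.

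SSA1 gave 18257 units in BF2B beside 16214 in BF2 on slide 1, and 23861 beside 31079 on slide 2. SSA2 gave 15690 beside 14531 units and 18968 beside 25502 units. For both genes the strain labelled with Cy5 was the brighter one on either slide, so the uncorrected signals gave no direction. After the dye correction SSA1 stood at a log2 ratio of -0.11 ± 0.02 and SSA2 at -0.14 ± 0.01, and neither was called. With loess fitted within each block SSA2 stood at 0.0069. The coding sequences of SSA1 and SSA2 are nearly identical, so their probes may each read both transcripts. A probe also exists for YAL004W, a dubious open reading frame opposite SSA1, picked out after the data were seen. It was above background in both strains and stood at -0.25 ± 0.30 in BF2B. Since no source names the strand its probe reads, signals of SSA1 and of an opposite transcript cannot be told apart.

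The value of SSA1 can be set against its neighbours. SSA1 lies on chromosome I, as the letter A in its systematic name shows. The 73 other genes of that chromosome above background had a median log2 ratio of 0.48 in BF2B, and only 3 of them had a lower ratio than SSA1. Relative to this median SSA1 stood at -0.59. The shift of chromosome I was seen after the values were known. It was 0.50 and 0.53 on the 2 slides, 0.49 under median centring and 0.48 with the dye correction fitted within each block. In the deposited value table it was 0.67. Its part in the value of SSA1 was not tested. The other 9 genes lie on 7 chromosomes whose remaining genes had medians between -0.03 and 0.05.

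**Figure D3:**
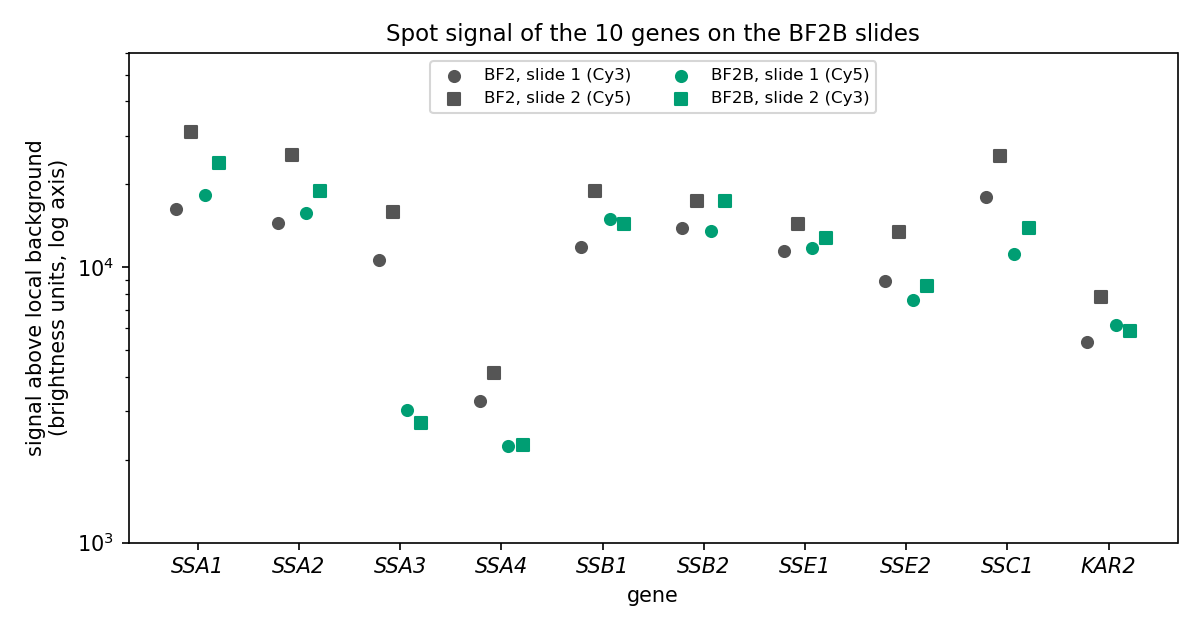
Signal above local background in brightness units (y axis, log scale) of each of the 10 genes (x axis) in BF2 (grey) and BF2B (green) on slide 1 (circles) and slide 2 (squares). BF2B lies below BF2 on both slides for SSA3, SSA4, SSC1, SSE2 and, by a narrow margin, SSB2. The distance is widest for SSA3, with 3025 and 2708 units beside 10611 and 15933. These signals carry no dye correction, and the share of all genes with this direction is not given. After correction the ratios of SSB2 had opposite signs, -0.27 and 0.28.

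The ribosome-associated SSB1 and SSB2, which encode near-identical proteins, showed no shared direction. SSB1 gave 14929 and 14346 units in BF2B beside 11869 and 18885 in BF2, with log2 ratios of 0.10 and -0.11. SSB2 gave 13500 and 17438 units beside 13835 and 17461, with ratios of -0.27 and 0.28. Each gene changed sign between the slides, and the spread of SSB2 over the slides, an SD of 0.39, was the widest of the 10 genes. Probes of the pair may read both transcripts. YDL228C, a dubious open reading frame opposite SSB1 that was also picked after the data were seen, stood at 0.21 ± 0.17.

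The Hsp110 genes encode exchange factors for Ssa and Ssb proteins. SSE1, the form expressed in growing cells, gave 11776 and 12770 units in BF2B beside 11464 and 14311 in BF2. Its log2 ratios of -0.15 and 0.12 had opposite signs. SSE2, the stress-inducible form, gave 7628 and 8547 units in BF2B beside 8934 and 13373 in BF2. BF2B was the dimmer strain on both slides, and the ratios of -0.33 and -0.35 gave a mean of -0.34 ± 0.02. SSE2 was not called, and 702 of 4660 genes had a lower ratio. With the dye correction fitted within each block its value was -0.15.

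SSC1, the mitochondrial Hsp70, gave 11149 and 13837 units in BF2B, against 18011 and 25306 for BF2. The BF2 signals were higher than both BF2B signals. The log2 ratio was -0.92 on slide 1 and -0.58 on slide 2, with a mean of -0.75 ± 0.24, or 1.68-fold lower. It was not called, since neither slide passed 2-fold. Only SSA3 was lower among the 10 genes, and 195 of 4660 genes had a lower ratio. With the correction fitted within each block the value moved to -0.44.

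KAR2, the Hsp70 of the endoplasmic reticulum, gave 6145 and 5866 units in BF2B, against 5339 and 7802 for BF2. Its log2 ratio was 0.15 on slide 1 and -0.15 on slide 2, so the slides gave opposite signs of equal size.

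The remaining genes of the Hsp70 class were read next to these 10. ECM10, a mitochondrial relative of SSC1, stood at -0.84 ± 0.31 in BF2B, past 1.5-fold on both slides but not called. SSQ1, the mitochondrial Hsp70 of iron-sulfur cluster assembly, stood at -0.25 ± 0.04. LHS1, the exchange factor of Kar2, gave 0.74 and -0.07 on the 2 slides. SSZ1, which forms the ribosome-associated complex with Zuo1, did not pass the background filter.

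The proteins that work with these Hsp70s were taken from 8 lists of 71 genes, of which 58 were above background on both BF2B slides. Across them 1 gene was called lower and 0 were called higher, beside 1.61% and 1.37% of all genes above background. The 23 J-domain genes had 16 members above background, 0 called, and a median log2 ratio of -0.01. Lowest were MDJ1, the J-domain partner of Ssc1, at -1.06 ± 0.29, and ERJ5 of the endoplasmic reticulum at -0.93 ± 0.35. YDJ1 and SIS1, the main partners of Ssa proteins, stood at 0.21 ± 0.10 and -0.22 ± 0.41. The 5 nucleotide exchange factors had a median of -0.22 with 0 called, and FES1, which acts on Ssa proteins, stood at 0.10 ± 0.14. SIL1, which acts on Kar2, was the farthest from 0 at -0.52 ± 0.24. The ribosome-associated list had 3 of 5 genes above background and 0 called. EGD1 and EGD2 of the nascent chain complex stood at -0.37 ± 0.29 and -0.19 ± 0.31.

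Of 12 genes of mitochondrial import and folding above background, 10 were below 0 on both slides, 1 was above 0 on both, and 0 were called. Over all genes above background, 32.0% lay below 0 and 31.6% above 0 on both slides. The median of the 12 genes was -0.24, beside -0.01 for all genes. Behind MDJ1 came HSP60 and HSP10, the chaperonin of the matrix, at -0.82 ± 0.20 and -0.62 ± 0.16. HSP78, a matrix disaggregase, stood at -0.53 ± 0.22 and the exchange factor MGE1 at -0.22 ± 0.06. TIM17, a channel subunit, was the 1 above 0, at 0.22 ± 0.21.

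The 19 chaperone genes known as Hsf1-dependent, other than the 10 genes themselves, went both ways. Their median was -0.34, and 0 were called. On both slides 11 lay below 0 and 7 above 0, beside 32.0% and 31.6% of all genes. MDJ1 and BTN2, which sorts misfolded proteins, were the farthest from 0 at -1.06 and 0.94 ± 0.30. APJ1 and CUR1 were also above 0, at 0.85 ± 0.75 and 0.58 ± 0.33, whereas HSP104 and HSP82 stood at -0.57 ± 0.06 and -0.46 ± 0.17. The 15 genes of folding and quality control in the endoplasmic reticulum had a median of -0.07 with 0 called. PDI1 stood at 0.12 ± 0.05 and ERO1 at -0.23 ± 0.03, and SIL1 and ERJ5 were the farthest from 0.

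Of the regulators, HAC1 was the single gene called among all partners. It gave 1914 and 2006 units in BF2B beside 4599 and 5273 in BF2, and its log2 ratio was -1.17 ± 0.07, or 2.26-fold lower. HSF1 stood at 0.24 ± 0.27, MSN2 at 0.25 ± 0.01 and MSN4 at 0.35 ± 0.34, above 0 on both slides. SKN7, which acts with Hsf1 under oxidative stress, stood at -0.31 ± 0.31. IRE1, which splices HAC1 messenger RNA, did not pass the background filter.

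The systematic names of HAC1 (YFL031W), MDJ1 (YFL016C) and ERJ5 (YFR041C) place them on chromosome VI, where no other partner gene above background lies. The 87 genes of that chromosome above background had a median log2 ratio of -0.75 in BF2B, with 16 called lower and 1 higher. It was -0.75 under median centring, -0.77 with the correction fitted within each block and -0.95 in the deposited value table. The part of this shift in the values of HAC1, MDJ1 and ERJ5 was not tested. Without them no J-domain gene passed 1.5-fold lower on both slides, and the medians of the mitochondrial and Hsf1-dependent lists were -0.23 and -0.34. None of the 10 Hsp70 and Hsp110 genes lies on chromosome VI.

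**Figure D4:**
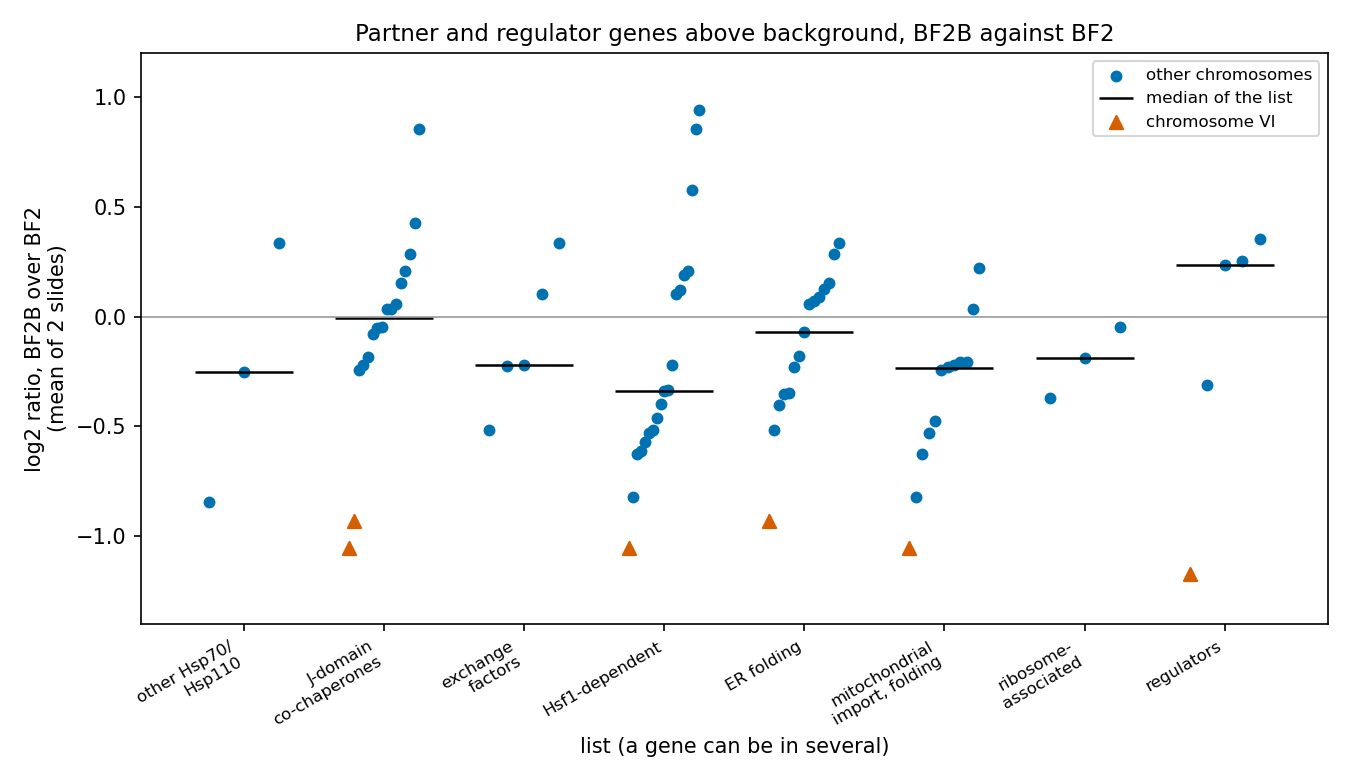
Log2 ratio of BF2B over BF2 (y axis, mean of 2 slides) of the partner and regulator genes above background, by list (x axis), with the list median as a bar and genes of chromosome VI as triangles. The triangles are MDJ1 at -1.06, ERJ5 at -0.93 and HAC1 at -1.17, and in each list with a triangle the lowest gene is one of them.

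In the sample labelled BF2S the values of the 10 genes turned on the slide correction. With the intensity-dependent correction (loess) 3 genes were called lower, KAR2, SSE1 and SSA4, and 2 were called higher, SSB2 and SSC1. Over all 5290 genes above background 25.1% were called lower and 19.3% higher, so a call was common on these slides. At 1.5-fold 3 genes were lower and 3 higher, beside 32.5% and 30.8% of all genes. On both slides 5 genes lay below 0 and 3 above 0, beside 45.0% and 46.9%. When each slide was centred on its median instead, all 10 genes were below BF2, between -4.37 and -1.72, and 10 were called lower. The deposited value table, centred on its medians, likewise placed all 10 below 0.

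KAR2 was below BF2 under both corrections. It gave 626.0 and 50.7 units in BF2S, not above background on either slide, beside 12220 and 10721 units in BF2. The signals did not overlap, but the same held for SSB2 and SSC1, which were called higher after loess. The share of all genes with such separation is not given. With loess fitted over the whole slide KAR2 was at least 11.9-fold lower, but the size moved with the setting: its log2 ratio, set in part by the floor, was -3.77 there, -2.87 with loess within each block, -3.02 without background subtraction and -2.09 with scaling between slides. SSE1 gave 1178 and 193.5 units in BF2S, above background on the first slide only, beside 22303 and 23327 units in BF2. Its log2 ratio was -2.95 ± 0.18, with -4.37 under median centring and -1.65 with scaling. SSA4 gave 1600 and 987.5 units in BF2S, with 4899 and 6161 in BF2, and on slide 2 only 1 of its 3 spots was above background in BF2S. Its log2 ratio was -1.49 ± 0.15, with -1.72 under median centring. It was -0.68 with loess within each block and -0.83 with scaling, both under 2-fold, so the call of SSA4 was lost there. The control spots named SSA4 were above background in BF2S on 0 of 144 spots of either slide, so no ratio is given for them there. Those named ACT1, the actin gene, were likewise above background in BF2S on 0 of 144 spots of either slide. For UB14 it was 144 spots on slide 1 and 1 on slide 2, and for RPL32 139 and 142. A dim BF2S signal was thus not particular to the Hsp70 and Hsp110 genes.

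SSB2 and SSC1 changed direction with the correction. SSB2 gave 5727 and 4374 units in BF2S beside 24938 and 22348 units in BF2, and SSC1 gave 5867 and 3847 beside 31279 and 28637. BF2 was brighter on both slides for both genes, although their corrected log2 ratios were 1.49 ± 0.14 and 1.32 ± 0.12. Median centring gave -2.12 for SSB2 and -2.52 for SSC1. SSB1 stood at 1.12 ± 0.28, above 2-fold on 1 slide, and at -2.31 under median centring. SSA3 gave 3078 and 2960 units beside 21904 and 21116 in BF2, with log2 ratios of -0.21 and 0.75 after correction and a mean of -2.66 under median centring. SSA1, SSA2 and SSE2 were not called, at -0.53 ± 0.39, -0.16 ± 0.21 and 0.31 ± 0.55.

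The probe of YAL004W, opposite SSA1, was above background in BF2 on the BF2S slides, at 20519 and 19786 units, but on none of its spots in BF2S. SSA1 itself was above background in both strains there, and its log2 ratio moved from 0.57 with loess within each block to -4.14 under median centring.

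**Figure D5:**
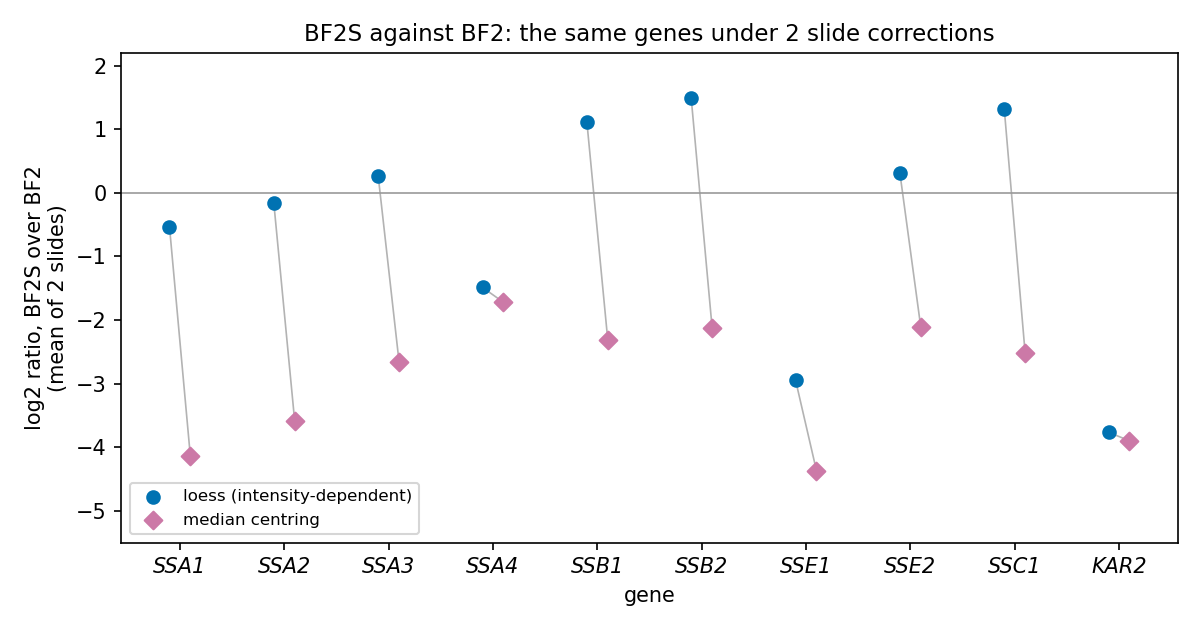
Log2 ratio of BF2S over BF2 (y axis, mean of 2 slides) of the 10 genes (x axis) with the intensity-dependent loess correction (circles) and with median centring (diamonds), joined by lines. Under median centring all 10 genes lie between -4.37 and -1.72, whereas under loess they spread from -3.77 to 1.49.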

How the data were processed

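The authors deposited 4 scanner files and 1 value table. Spot and local background intensity, per the file headers, come from 635 nm for Cy5 and from 532 nm for Cy3. The deposited table holds log2 ratios of strain over BF2, not centred: 62.7% to 69.7% of its values matched the first spot of a probe within 0.001, and its column medians were 0.20, -0.29, 0.23 and -0.80. It was centred on them for use as an alternative. Spots with the negative flag of the scanner files, which is not explained there, were kept, and no spot of the 10 genes had it. The image software is not named in those sources.

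Spot medians were corrected with limma 3.58.1 in R 4.3.3 (normexp, offset 50), then by loess fitted to gene spots of a slide. Each probe's 3 spots were averaged, with signs set to strain over BF2 from the labelled dyes. Above background means that 2 or more spots exceeded the background mean plus 2 SD. For a gene below that limit in BF2S on both slides the fold is a bound, with the dim signal set at the lowest level above background on that slide or at its own, whichever was higher. It rests on loess and, for the bound alone, on a quantile adjustment of average brightness between slides (limma, Aquantile). Of 6388 probes, 5849 matched the RefSeq gene table (R64) by systematic name. Python 3.11.15 was used with pandas 2.3.3, numpy 2.4.6 and, for plots, matplotlib 3.10.9. Arrays carry no read depth, and the number of slides limits precision.

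Named were the 10 genes, the other 4 family genes, the regulators, BDF1, BDF2 and SIR2 and, of each list, up to 4 called genes or the 2 farthest from 0. Further list members were named outside this rule, with their values known. SIR2 was not above background on both BF2B slides. The genes and lists were chosen with earlier results of these data known. Alternatives covered background, correction, filter, fold, marked spots and single slides. The blockwise loess and the blank-spot filter were chosen after seeing the data.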

Additional observations from a re-analysis of the deposited data

Results flagged for a closer look

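SSC1 was below BF2 on both BF2B slides (-0.92 and -0.58) and above it on both BF2S slides (1.40 and 1.23), so that its log2 ratio was 2.07 higher in BF2S than in BF2B. This opposite direction drew attention to the gene, and the difference was not tested. By size alone KAR2, SSE1 and SSA3 differed more between BF2S and BF2B, at -3.77, -2.93 and 2.29. Under median centring SSC1 was below BF2 in BF2S as well, at -2.52.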

How the results depend on the processing

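In BF2B, SSA3 stood between -2.13 and -1.97 over 7 alternatives. Scaling between slides set the BF2B and BF2S slides to a common spread of ratios, which widened those of BF2B. It put SSA3 at -3.63 and gave 2 genes called lower, SSC1 being the other at -1.35, and a median of -0.23. The median of the 10 genes was -0.046 under median centring and between -0.21 and -0.14 on single slides, on which the counts of 1 lower and 0 higher did not move. In BF2S the 3 genes called lower became 10 under median centring, 9 in the deposited table and 0 with both channels above background. The 2 called higher became 0 under median centring, in the deposited table, with scaling and at 3-fold, and 1 with marked spots left out or loess within each block. SSB2 turned to -2.12 and -2.01 and SSC1 to -2.52 and -2.37 under median centring and in the deposited table. The cause was not tested. On single BF2S slides 2 to 3 genes were higher and 3 lower. No paired analysis was possible because the 2 slides of a comparison share 1 RNA pair. Signals of BF2S below those of blank spots limit every BF2S value.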
